A study of Mus musculus with 30 samples.

Results

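The 3 enzymes by which heart muscle burns ketone bodies, Bdh1, Oxct1 and Acat1, were followed in the left ventricle of mice given amyloid beta 42 (Aβ42) or an antibody against it. They were chosen by name as the mitochondrial enzymes of ketone body oxidation, and all 3 were found in both gene tables, among 49671 genes of the peptide study and 55177 genes of the antibody study. Bulk RNA-seq was available for 30 male C57BL6J mice in 4 groups, with no genetic modification named, from experiments that were run separately. In the peptide study, 7 mice received recombinant human Aβ42 and 7 received a peptide of scrambled Aβ42 sequence (ScrAβ42), by daily intraperitoneal injection for 4 weeks from 12 weeks of age in the labels (the study's methods also allow a slightly younger start). The labels give 1 mg of peptide per day, whereas the study's methods give the same figure in micrograms. In the antibody study, 8 mice received 3D6, an antibody that neutralises Aβ, and 8 received an isotype control antibody, from about 12 weeks of age. The study's methods describe weekly antibody injections during high-fat feeding, with hearts imaged at 12 weeks of the diet and collected 2 weeks after that, whereas the series description says that these mice had been given Aβ42, so what the 16 hearts share beyond the antibodies differs between the sources. Human peptide given to mice, and left ventricle sampled as whole tissue, limit the groups as models. In such tissue, fewer cardiomyocytes and less RNA per cardiomyocyte cannot be told apart.

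Ketone bodies are made in the liver during fasting and are burned in the mitochondria of heart, muscle and brain. Bdh1 oxidises D-β-hydroxybutyrate to acetoacetate, Oxct1 (also called SCOT) moves coenzyme A from succinyl-CoA to acetoacetate, and Acat1 splits the resulting acetoacetyl-CoA into acetyl-CoA for the tricarboxylic acid cycle. Oxct1 is the step that the liver lacks, which is why the liver exports ketone bodies and does not burn them. Acat1 also works in isoleucine breakdown, so its level is not particular to ketone bodies.

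Total counts per heart ran from 4478991 to 6015767 in the peptide study and from 6397192 to 8310478 in the antibody study. Counts from the mitochondrial genome took 12.9% to 22.2% of each library in the peptide study and 26.0% to 37.9% in the antibody study. All 8 ventricular cardiomyocyte markers passed the filter on low counts in both studies, and their summed level was 42550 to 90259 CPM (counts scaled to a common library total) in the peptide study and 47925 to 60216 CPM in the antibody study. Some hearts stood apart. In the peptide study, 1 Aβ42 heart (the low Aβ42 heart below) had the lowest cardiomyocyte sum and mitochondrial share, with 8417 CPM of 5 summed atrial markers and 247.9 CPM of the brown adipocyte marker. Next lowest in both measures was 1 ScrAβ42 heart (the low ScrAβ42 heart), with an atrial sum of 3665 CPM and the highest red blood cell (15945 CPM), fibroblast (1880 CPM), macrophage (196 CPM) and fast skeletal muscle (912 CPM) sums of its study. The low Aβ42 heart had the next highest fibroblast sum, 1713 CPM, where the remaining 12 hearts reached 1203 CPM. Atrial sums were uneven between the groups. They reached 4707, 4357 and 1158 CPM in 3 further Aβ42 hearts, whereas the other 6 ScrAβ42 hearts had at most 31.8 CPM, and control antibody mouse 15 had 2785 CPM. The part of these markers in the members' levels was not tested, apart from the atrial covariate given with the atrial relations. The control antibody heart of mouse 22 had the lowest mitochondrial share of its study, 26.0%, with a cardiomyocyte sum of 56119 CPM and an atrial sum of 2.15 CPM.

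Bdh1 lies on chr16:31422280-31458901 (GRCm38, plus strand), Oxct1 on chr15:4026383-4155344 (plus strand) and Acat1 on chr9:53580522-53610382 (minus strand). Bdh1 has 7 annotated transcripts, 3 of which share the same coding length of 1029 bases and differ in their first exon and 3′ end. Of the Bdh1 counts in the antibody study, 67.1% were assigned to Bdh1-203 and 29.0% to Bdh1-202, whose starts lie 551 bases apart. Bdh1-201, which starts 6468 bases upstream of Bdh1-203, had 0 counts in all 16 hearts. The genomic sequence just upstream of the Bdh1-203 and Bdh1-201 starts is shown for that contrast, with CG dinucleotides in capitals (RefSeq promoter table, GRCm38.p6, plus strand). The start of Bdh1-202, which also had counts, is not shown. Each run ends at the base before the annotated start. The runs lie at chr16:31428503-31428747 for Bdh1-203 and at chr16:31422047-31422279 for Bdh1-201.
Bdh1-203 upstream: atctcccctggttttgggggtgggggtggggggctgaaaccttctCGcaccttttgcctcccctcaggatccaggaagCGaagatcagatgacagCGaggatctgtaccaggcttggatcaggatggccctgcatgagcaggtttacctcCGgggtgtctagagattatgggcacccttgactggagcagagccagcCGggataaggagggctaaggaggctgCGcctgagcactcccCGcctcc
Bdh1-201 upstream: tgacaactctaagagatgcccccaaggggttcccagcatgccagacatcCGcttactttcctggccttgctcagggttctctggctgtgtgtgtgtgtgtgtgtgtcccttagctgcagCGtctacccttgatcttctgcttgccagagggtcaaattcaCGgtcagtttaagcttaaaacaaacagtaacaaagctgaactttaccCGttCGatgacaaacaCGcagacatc

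The 300-base window around the Bdh1-203 start held 17 CG dinucleotides, a number that 31.4% of all 32851 windows of that length reach or pass. The window of Bdh1-201 held 7 CG dinucleotides, which 52.1% of windows reach or pass. The G and C share of the printed run was 60.4% for Bdh1-203 and 49.8% for Bdh1-201. These are descriptions of the windows and were not linked to the transcript levels by any test. RefSeq windows were matched for 2 of the 3 members, Bdh1 and Oxct1.

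Per kilobase of transcript, the RNA of Oxct1 was the most abundant of the 3 members and that of Bdh1 the least. Only RNA was measured in these data, not protein, enzyme activity or ketone body use. Oxct1 averaged 284 ± 57.5 CPM per kilobase (SD, n = 7) in ScrAβ42 hearts and 263 ± 78.7 (SD, n = 7) in Aβ42 hearts. Acat1 averaged 201 ± 27.1 CPM per kilobase (SD, n = 7) in ScrAβ42 hearts and 199 ± 38.7 (SD, n = 7) in Aβ42 hearts. Bdh1 averaged 27.7 ± 13.1 CPM per kilobase (SD, n = 7) in ScrAβ42 hearts and 33.0 ± 17.01 (SD, n = 7) in Aβ42 hearts. Oxct1 lay above Acat1 in 13 of 14 hearts given peptides and in 16 of 16 given antibodies, with median ratios of 1.34 and 1.43 per kilobase. Acat1 lay above Bdh1 in every heart of both studies, at a median ratio of 7.64 with the peptides and 3.35 with the antibodies. The ranges of Oxct1 and Acat1 overlapped between hearts, whereas Bdh1 lay well below both. In the antibody study the means per kilobase were 182 ± 42.3 for Oxct1, 124 ± 21.4 for Acat1 and 41.8 ± 14.3 for Bdh1 under control antibody (SD, n = 8), and 190 ± 18.4, 139 ± 10.7 and 34.1 ± 15.7 under 3D6 (SD, n = 8). The tables were normalised separately, so levels were not compared between the studies.

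Whether Aβ42 altered the RNA of these enzymes was the question of the peptide comparison, and no member passed the test. Bdh1, the entry step for β-hydroxybutyrate, ran from 41.4 CPM over a median of 54.0 to 129.8 CPM in ScrAβ42 hearts, and from 16.3 over 72.9 to 145.8 CPM in Aβ42 hearts. The groups overlapped over nearly their whole range, and both the lowest and the highest heart of the study were Aβ42 hearts. Bdh1 was above the ScrAβ42 median in 6 of 7 Aβ42 hearts. Its log2 fold change was 0.25 (SE 0.37, 95% interval -0.54 to 1.04, edgeR quasi-likelihood adjusted p = 0.945). With 1 heart left out it ran from 0.06 to 0.46, and it was 0.44 without the low Aβ42 heart (edgeR unadjusted p = 0.137). Fitted by limma-voom, the log2 fold change of Bdh1 was 0.13 (limma-voom adjusted p = 0.967). Its mean log2 CPM differed by 0.12 (2-sided exact permutation p = 0.801, adjusted 0.866).

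Oxct1, the committed step of ketone body use, ran from 721 over a median of 925 to 1277 CPM in ScrAβ42 hearts and from 434 over 953 to 1239 CPM in Aβ42 hearts. The low Aβ42 heart was lowest at 434 CPM, and the other 6 Aβ42 hearts lay between 684 and 1239 CPM. The log2 fold change of Oxct1 was -0.11 (SE 0.19, 95% interval -0.52 to 0.30, edgeR adjusted p = 0.949), and without the low Aβ42 heart it was 0.01. Acat1 ran from 520 over 699 to 819 CPM in ScrAβ42 hearts and from 449 over 727 to 800 CPM in Aβ42 hearts. Its log2 fold change was -0.01 (SE 0.13, 95% interval -0.29 to 0.27, edgeR adjusted p = 0.994). The mean log2 CPM differed by -0.15 for Oxct1 (exact permutation p = 0.536, adjusted 0.804) and by -0.02 for Acat1 (exact permutation p = 0.866, adjusted 0.866). At an adjusted p under 0.05, 0 of the 3 members were called, beside 0% of the 11985 genes tested. At an unadjusted p under 0.05, 0 of 3 members passed, beside 6.51% of all genes. Once the first surrogate variable, a factor estimated from all genes, was added to the fit, Acat1 had a log2 fold change of 0.13 (95% interval 0.01 to 0.25, edgeR unadjusted p = 0.0323, adjusted 0.466) and Bdh1 one of 0.54 (edgeR unadjusted p = 0.0624, adjusted 0.539). DESeq2 called 12 genes and limma-voom 0, and no member was among them.

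**Figure D1:**
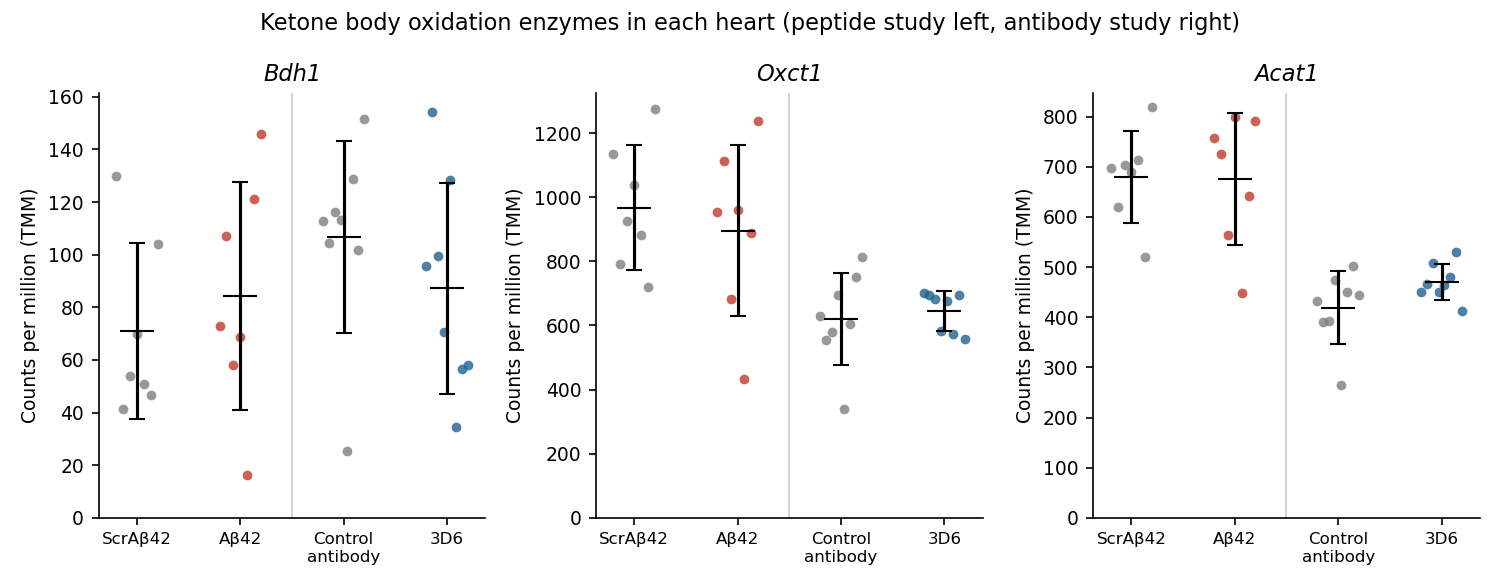
Level of Bdh1, Oxct1 and Acat1 in CPM (vertical axis) in each of the 30 hearts, by group, with the bar and whiskers giving the mean and SD of 7 or 8 hearts. The groups of each study overlap for every gene, and single hearts sit far below the rest, at 16.3 CPM of Bdh1 in the Aβ42 group and 25.5 CPM in the control antibody group.

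The antibody comparison asked whether neutralising Aβ moved the RNA of the same enzymes, and again no member passed the test. Bdh1 ran from 25.5 over a median of 113.0 to 151.7 CPM in control antibody hearts and from 34.5 over 83.1 to 154.3 CPM in 3D6 hearts. The control antibody heart of mouse 22 stood alone at 25.5 CPM, and the other 7 lay between 101.7 and 151.7 CPM. The 3D6 hearts were spread evenly from low to high, and 6 of 8 were below the control median. The log2 fold change of Bdh1 was -0.29 (SE 0.29, 95% interval -0.91 to 0.32, edgeR adjusted p = 0.944). It was -0.44 without control mouse 22 (edgeR unadjusted p = 0.0739, adjusted 0.999) and -0.17 without 3D6 mouse 24 (edgeR unadjusted p = 0.543). All 5 endothelial markers had negative log2 fold changes under 3D6, as did 6411 of all 12141 genes tested. They ran from -0.25 for Emcn (edgeR unadjusted p = 0.0178) and -0.23 for Pecam1 (edgeR unadjusted p = 0.0139) to -0.08 for Cdh5. Each had an edgeR adjusted p = 0.944. Under Aβ42 the same markers went both ways, from -0.15 for Tek to 0.34 for Emcn (edgeR unadjusted p = 0.0234, adjusted 0.708). The part of these markers in the members' values was not tested.

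Oxct1 ran from 339.5 over 616 to 814 CPM in control antibody hearts and from 558 over 679 to 701 CPM in 3D6 hearts. Its log2 fold change was 0.06 (SE 0.13, 95% interval -0.22 to 0.33, edgeR adjusted p = 0.954), and -0.03 without mouse 22. Acat1 ran from 265 over 439 to 502 CPM in control antibody hearts and from 413 over 465 to 529 CPM in 3D6 hearts. Acat1 was above the control median in 7 of 8 3D6 hearts, and its log2 fold change was 0.17 (SE 0.11, 95% interval -0.06 to 0.39, unadjusted p = 0.138, edgeR adjusted p = 0.944). In a 2-sided exact permutation test of the mean log2 CPM, Acat1 differed by 0.18 (p = 0.0827, 0.600 after adjustment over 12 tests). With 1 heart left out, the unadjusted exact permutation p ran from 0.0298 without control mouse 3 and 0.0407 without 3D6 mouse 7 up to 0.165 without control mouse 22, where the difference was 0.093. For the other members the differences under 3D6 were -0.30 for Bdh1 (exact permutation p = 0.451, adjusted 0.773) and 0.09 for Oxct1 (exact permutation p = 0.627, adjusted 0.835). At an adjusted p under 0.05, 0 of the 3 members were called, beside 0% of the 12141 genes tested. At an unadjusted p under 0.05, 0 of 3 members passed, beside 3.67% of all genes, and neither DESeq2 nor limma-voom called any gene.

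**Figure D2:**
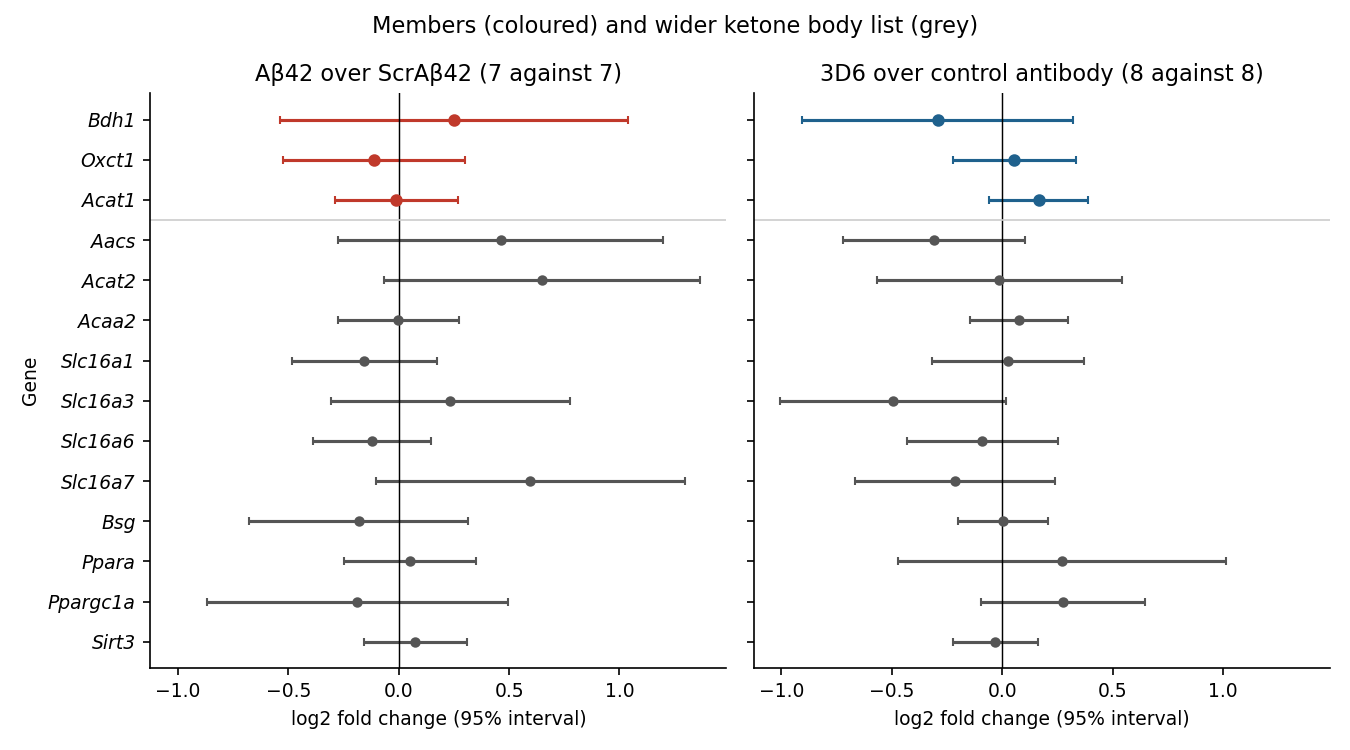
Log2 fold change (horizontal axis, point) with its 95% interval (line) for the 3 members and the 11 genes of the wider ketone body list that passed the filter, Aβ42 over ScrAβ42 on the left and 3D6 over control antibody on the right. Every interval shown includes 0, those of the members running from -0.54 to 1.04 for Bdh1 under Aβ42 and from -0.91 to 0.32 under 3D6.

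What set Bdh1 apart from the other members was its spread between hearts of 1 group. The within-group SD of log2 CPM was 0.85 for Bdh1 in the peptide study, where the median gene had 0.23, and 0.75 in the antibody study, where the median gene had 0.28. These values were higher than those of 97.1% and 97.7% of the genes tested. Oxct1 had 0.41 and 0.29, at percentiles 82.9 and 52.9, and Acat1 had 0.26 and 0.22, at percentiles 57.6 and 28.6. With the low Aβ42 and ScrAβ42 hearts left out, the SD of Bdh1 in the peptide study was 0.58, at percentile 95.6. With mouse 22 left out, it was 0.53 in the antibody study, at percentile 93.8. Bdh1 counts per heart were 119 to 735 in the peptide study and 178 to 1154 in the antibody study, and the SD of a gene depends on its level as well as on the hearts.

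**Figure D3:**
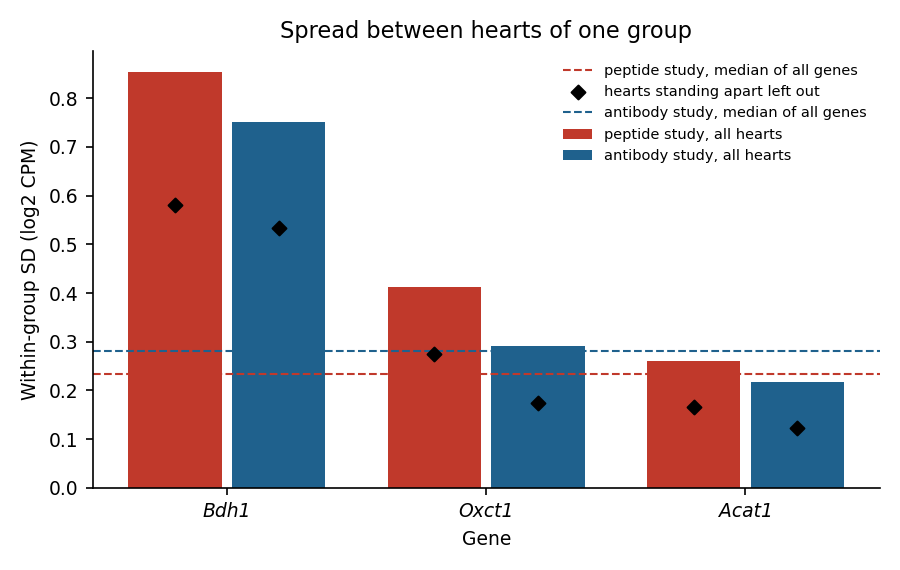
Within-group SD of log2 CPM (vertical axis) of each member, with 14 hearts in the peptide study (red) and 16 in the antibody study (blue), the diamonds giving the SD without the low Aβ42 and ScrAβ42 hearts or without mouse 22. The bars of Bdh1, at 0.85 and 0.75, stand above the dashed lines of the median gene at 0.23 and 0.28, while those of Acat1 lie near them.

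RNA levels of the enzymes were correlated across hearts once group means were removed. In the peptide study, Bdh1 and Oxct1 had Pearson's r = 0.92 (permutation p = 3e-05, adjusted 0.00027 over 18 relations) and Spearman's rho = 0.87 (permutation p = 0.00015, adjusted 0.00135), over 14 hearts. Without the low Aβ42 and ScrAβ42 hearts, which were farthest from the median of Oxct1, r was 0.83, and within the groups it was 0.93 in Aβ42 and 0.90 in ScrAβ42 hearts. Oxct1 and Acat1 had r = 0.92 (permutation p = 3e-05, adjusted 0.00027) and rho = 0.85 (permutation p = 0.00013, adjusted 0.00135), and r = 0.82 without the same hearts. Bdh1 and Acat1 were less closely related, with r = 0.75 (permutation p = 0.00229, adjusted 0.00602) and rho = 0.58 (permutation p = 0.0317, adjusted 0.0713), and r fell to 0.44 without those hearts.

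In the antibody study the relation of Acat1 to Oxct1 held best, with r = 0.89 (permutation p = 0.0001, adjusted 0.0006) and rho = 0.71 (permutation p = 0.00254, adjusted 0.0114) over 16 hearts, and r = 0.75 without mice 22 and 8. Within the groups r was 0.94 under control antibody and 0.53 under 3D6. Bdh1 and Oxct1 had r = 0.79 (permutation p = 0.00123, adjusted 0.00443) and rho = 0.56 (permutation p = 0.0252, adjusted 0.0713), and r = 0.48 without mice 22 and 8. The relation of Bdh1 to Acat1 rested on mouse 22, since r was 0.60 with it (permutation p = 0.0308, adjusted 0.0427), rho was 0.22 (permutation p = 0.404, adjusted 0.489) and r was 0.06 without it.

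**Figure D4:**
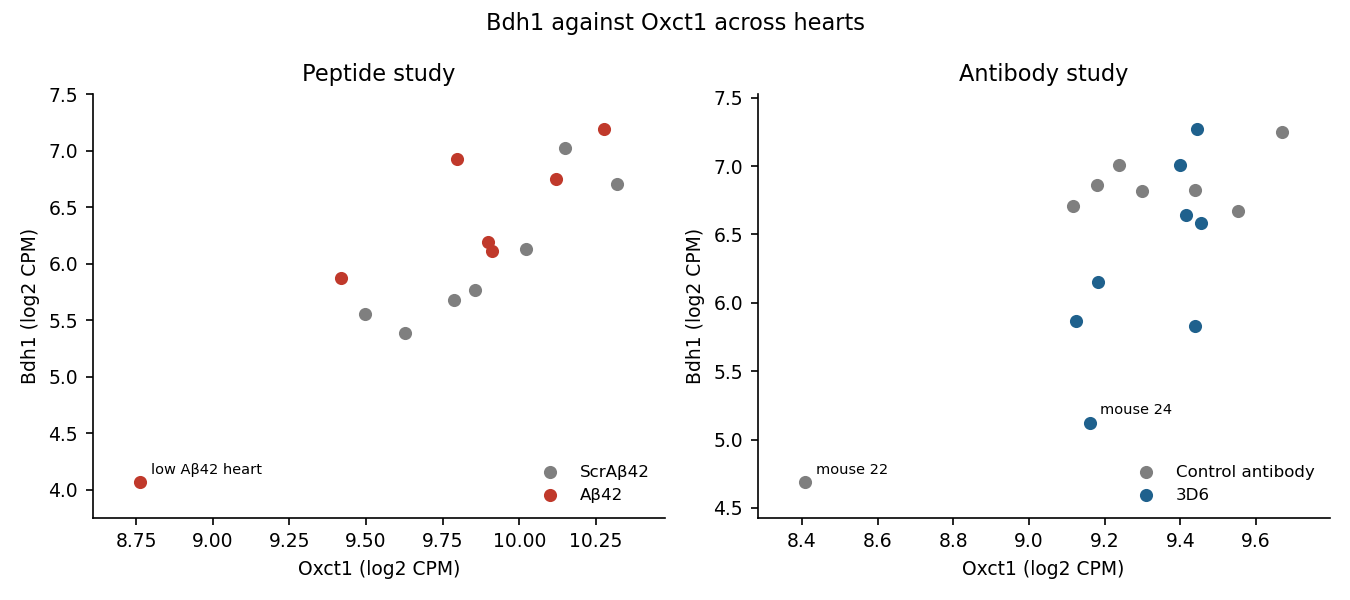
Bdh1 against Oxct1 in log2 CPM, 1 point per heart, coloured by group, for the peptide study (left, 14 hearts) and the antibody study (right, 16 hearts). The low Aβ42 heart and mouse 22 lie at the low end of both genes, and mouse 24 of the 3D6 group has a low Bdh1 at an Oxct1 level near that of the other hearts.

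Some members also followed the share of counts from the mitochondrial genome. In the antibody study, Oxct1 had r = 0.81 with that share (permutation p = 0.00015, adjusted 0.000675) and rho = 0.72 (permutation p = 0.00208, adjusted 0.0114), and r = 0.62 without mice 8 and 22. Acat1 had r = 0.68 (permutation p = 0.00422, adjusted 0.00918) and rho = 0.59 (permutation p = 0.0188, adjusted 0.0678), and r = 0.54 without those hearts. Bdh1 had r = 0.39 (permutation p = 0.132, adjusted 0.169) and rho = 0.08 (permutation p = 0.770, adjusted 0.844), and r = -0.15 without mice 8 and 22. In the peptide study r with the mitochondrial share was 0.61 for Bdh1 (permutation p = 0.0207, adjusted 0.0311), 0.69 for Oxct1 (permutation p = 0.00695, adjusted 0.0125) and 0.71 for Acat1 (permutation p = 0.00459, adjusted 0.00918). Those relations rested on the low Aβ42 and ScrAβ42 hearts, since r without them was 0.13, 0.21 and 0.17, and rho with all hearts was 0.45 (permutation p = 0.108, adjusted 0.177), 0.47 (permutation p = 0.0948, adjusted 0.171) and 0.37 (permutation p = 0.199, adjusted 0.276).

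In the peptide study, Acat1 and Oxct1 were lower in hearts with more atrial marker RNA by Pearson's r, whereas Bdh1 did not pass the test and no rank correlation passed after adjustment. With the mean standardised level of 5 atrial markers, r was -0.75 for Acat1 (permutation p = 0.00234, adjusted 0.00602), -0.63 for Oxct1 (permutation p = 0.0163, adjusted 0.0267) and -0.41 for Bdh1 (permutation p = 0.147, adjusted 0.176). The corresponding rho was -0.59 (permutation p = 0.0303, adjusted 0.0713), -0.51 (permutation p = 0.0664, adjusted 0.133) and -0.24 (permutation p = 0.408, adjusted 0.489). Without the low ScrAβ42 heart and the Aβ42 heart with the highest atrial score, r was -0.62, -0.55 and -0.39. The summed atrial markers ran from 12.4 over a median of 1158 to 8417 CPM in Aβ42 hearts and from 3.82 over 10.5 to 3665 CPM in ScrAβ42 hearts. In the antibody study r with the atrial score was -0.12 for Acat1, -0.05 for Oxct1 and 0.13 for Bdh1 (permutation p = 0.689, 0.856 and 0.632, adjusted 0.729, 0.856 and 0.711). There rho was -0.36, -0.07 and 0.01 (permutation p = 0.177, 0.797 and 0.987, adjusted 0.265, 0.844 and 0.987), and r without control mouse 15 and 3D6 mouse 20 was -0.03, 0.11 and 0.20. Without control mouse 22 alone r was -0.48 for Acat1, -0.34 for Oxct1 and -0.0084 for Bdh1. For Acat1 it was -0.79 within the 3D6 hearts and 0.13 within the control antibody hearts, a difference that was not tested. With the atrial score as a covariate, the log2 fold changes under Aβ42 were 0.58 for Bdh1, 0.15 for Oxct1 and 0.20 for Acat1, none of which passed the test.

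The RNA balance between the steps was read as a log2 ratio of CPM within each heart. None of 6 comparisons of ratios passed a 2-sided exact permutation test. Bdh1 to Oxct1 averaged -3.58 ± 0.59 in Aβ42 and -3.86 ± 0.38 in ScrAβ42 hearts (SD, n = 7 each, exact permutation p = 0.319, adjusted 0.639). Under 3D6 it averaged -3.02 ± 0.61, against -2.63 ± 0.48 under control antibody (SD, n = 8 each, exact permutation p = 0.183, adjusted 0.600). Bdh1 to Acat1 differed by 0.15 under Aβ42 (exact permutation p = 0.698, adjusted 0.837) and by -0.48 under 3D6 (exact permutation p = 0.159, adjusted 0.600). Acat1 to Oxct1 differed by 0.13 under Aβ42 (exact permutation p = 0.251, adjusted 0.603) and by 0.09 under 3D6 (exact permutation p = 0.200, adjusted 0.600). Without the low Aβ42 heart, the differences under Aβ42 were 0.46 for Bdh1 to Oxct1 (exact permutation p = 0.0513), 0.40 for Bdh1 to Acat1 (exact permutation p = 0.184) and 0.06 for Acat1 to Oxct1 (exact permutation p = 0.494), before adjustment. Both ratios with Bdh1 in the antibody study also moved with single hearts. Without the control heart of mouse 22, Bdh1 to Oxct1 differed by -0.54 (exact permutation p = 0.0398) and Bdh1 to Acat1 by -0.66 (exact permutation p = 0.0308), before adjustment. Without the 3D6 heart of mouse 24 the differences were -0.24 (exact permutation p = 0.354) and -0.31 (exact permutation p = 0.313).

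At the level of single transcripts, counted in the antibody study, 9 transcripts of the 3 genes passed the filter. None of them was called, beside 0% of the 20857 transcripts tested, and none had an unadjusted p under 0.05, beside 2.4% of all transcripts. Bdh1-203 averaged 73.0 ± 23.7 CPM under control antibody and 58.1 ± 28.1 under 3D6 (SD, n = 8 each), with a log2 fold change of -0.33 (SE 0.31, edgeR adjusted p = 1.00). Bdh1-202 averaged 30.7 ± 12.9 and 26.1 ± 11.5 CPM, with a log2 fold change of -0.24 (SE 0.39, edgeR adjusted p = 1.00). The count of Bdh1-202 was 0.14 to 0.59 times that of Bdh1-203, with a median of 0.44, and the heart of mouse 22, with 22 counts of Bdh1-202 and 156 of Bdh1-203, had the low end of that range. Acat1-201 took 99.6% of the Acat1 counts and Oxct1-201 took 94.9% of the Oxct1 counts.

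Oxct1-205, with 2.29% of the Oxct1 counts, varied from heart to heart. It joins exon 15 of Oxct1-201 to exon 17 and so lacks exon 16, a coding exon of 102 bases (34 codons, no change of frame) at chr15:4147565-4147666 (GRCm38, plus strand). The transcripts also differ at their ends, since Oxct1-205 starts 301 bases after Oxct1-201 and ends 1381 bases before it. The estimated level of Oxct1-205 is therefore not a measure of exon 16 skipping alone. The skipped exon and the 30 bases across the new junction are shown, with capitals marking exon 17.
Oxct1 exon 16: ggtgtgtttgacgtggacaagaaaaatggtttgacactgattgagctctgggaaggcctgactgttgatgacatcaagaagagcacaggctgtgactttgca
Oxct1-205 junction: atcattacagaaaagGTTTCACCAAACCTC

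Oxct1-205 was at 60.3, 54.2 and 42.1 CPM in the 3D6 hearts of mice 4, 12 and 7, and at 50.05 and 17.05 CPM in the control antibody hearts of mice 8 and 3. In the other 11 hearts it ran from 0 to 3.45 CPM. High hearts were thus found under both antibodies, and the log2 fold change of 1.04 had an SE of 1.29 (95% interval -1.70 to 3.78, edgeR adjusted p = 1.00). It was 0.55 without 3D6 mouse 4 and 2.36 without control mouse 8. The share of counts from the mitochondrial genome was 37.9% in mouse 4, 35.3% in mouse 12, 34.0% in mouse 7, 37.9% in mouse 8 and 35.3% in mouse 3, which are the 5 highest shares of the 16 hearts. These hearts also had the 5 lowest values of the first surrogate variable, -0.38 to -0.17, where the next was -0.08. The part of that share or of that variable in the Oxct1-205 level was not tested. Oxct1-203, a noncoding transcript within the gene, had counts in mice 7, 8 and 12, at 15.6, 15.3 and 8.14 CPM, and 0 in the other 13 hearts. These are estimates that divide reads between overlapping transcripts, and reads across the junction itself were not counted here.

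**Figure D5:**
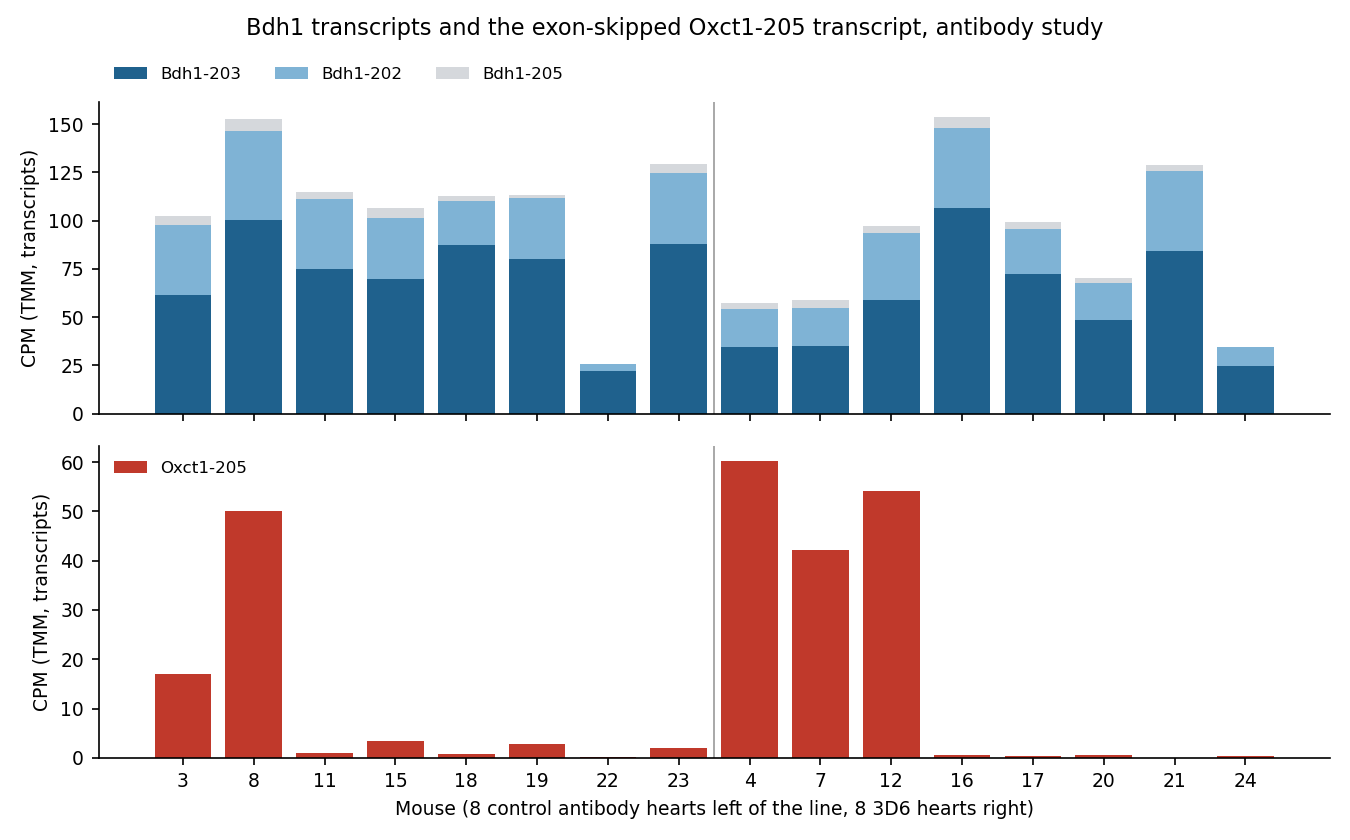
Level of 3 Bdh1 transcripts (top, stacked) and of Oxct1-205 (bottom) in CPM in each of the 16 hearts of the antibody study, control antibody left of the line and 3D6 right of it. Bdh1-203 and Bdh1-202 are low together in mice 22 and 24, and Oxct1-205 stands out in mice 3, 8, 4, 7 and 12, where it reaches 17.05 to 60.3 CPM.

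The wider list held 16 genes that share intermediates with the members or carry, sense and regulate ketone bodies, of which 11 passed the filter in each study. Under Aβ42, 6 had a positive and 5 a negative log2 fold change and 0 were called, with a median of 0.05 beside 0.00 for all genes. Under 3D6, 5 had a positive and 6 a negative log2 fold change and 0 were called, with a median of -0.01 beside -0.01 for all genes. At an unadjusted p under 0.05 the count was 0 of 11 in both studies, beside 6.51% of all genes under Aβ42 and 3.67% under 3D6.

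Of the other enzymes that use these intermediates, Acaa2, a thiolase of fatty acid oxidation, averaged 960 ± 195.5 CPM under Aβ42 and 962 ± 121.7 under ScrAβ42 (SD, n = 7 each). Its log2 fold change was 0.00 (SE 0.13) under Aβ42 and 0.08 (SE 0.11) under 3D6. Aacs and the cytosolic thiolase Acat2, which feed acetoacetate and acetyl-CoA into lipid synthesis, were low, at means of 1.85 to 7.11 CPM over the 4 groups. Their log2 fold changes were 0.46 (SE 0.35) and 0.65 (SE 0.34) under Aβ42, and -0.31 (SE 0.20) and -0.01 (SE 0.27) under 3D6. Bdh2, Oxct2a and Oxct2b were under the filter, and Oxct2b, a testis paralogue of Oxct1, was at 0 counts in all 30 hearts.

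Of the carriers, Slc16a1 (MCT1), which brings ketone bodies and lactate into cells, averaged 297 ± 66.5 CPM under Aβ42 and 331 ± 62.5 under ScrAβ42 (SD, n = 7 each), with a log2 fold change of -0.16 (SE 0.15). Under 3D6 its log2 fold change was 0.03 (SE 0.17). Bsg (basigin), the chaperone that MCT1 needs to reach the membrane, had -0.18 (SE 0.23) and 0.00 (SE 0.10). Slc16a7 (MCT2) had 0.60 (SE 0.33) under Aβ42 and -0.21 (SE 0.22) under 3D6, and Slc16a3 (MCT4) had 0.23 (SE 0.26) and -0.50 (SE 0.24). Slc16a6 had -0.12 (SE 0.13) and -0.09 (SE 0.16). None of these 5 genes passed the test in either study.

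Of the regulators, Ppara had log2 fold changes of 0.05 (SE 0.14) under Aβ42 and 0.27 (SE 0.36) under 3D6. Ppargc1a, a coactivator of mitochondrial genes, had -0.19 (SE 0.32) and 0.28 (SE 0.18), and Sirt3, a mitochondrial deacetylase, had 0.08 (SE 0.11) and -0.03 (SE 0.09). The receptors Hcar2 and Ffar3 were under the filter in both studies.

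The genes whose levels followed each member most closely were ranked by the smaller of their r in the 2 studies, among 11357 genes tested in both, with group means removed (14 and 16 hearts). For Bdh1 these were Ugp2 (r = 0.94 in both studies), which makes UDP-glucose, Optn (0.89 and 0.91), an autophagy receptor, and Ptgds (0.92 and 0.88), a prostaglandin D synthase. Oxct1 ranked 34th in that order with 0.92 and 0.79, and Acat1 ranked 321st. For Oxct1 they were the mitochondrial chaperone Hspa9 (0.97 and 0.97), the glucose phosphate mutase Pgm1 (0.94 and 0.94) and the aspartate aminotransferase Got1 (0.94 and 0.95). There Acat1 ranked 44th and Bdh1 253rd. For Acat1 they were Sucla2, a subunit of succinyl-CoA synthetase (0.97 and 0.97), Acadm, the medium-chain acyl-CoA dehydrogenase (0.96 and 0.97), and Prdx3, a mitochondrial peroxiredoxin (0.96 and 0.96). Oxct1 ranked 50th and Bdh1 724th for Acat1. By this measure, many other genes followed each member more closely than its fellow members did. These values describe likeness across the same hearts and libraries.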

How the data were processed

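Left ventricle total RNA was sequenced by the study (TruSeq Stranded Total RNA, NovaSeq) and quantified by the authors with Salmon against the GENCODE mouse vM24 transcriptome (GRCm38 in the submitters' processing notes). The deposited peptide table holds whole-number counts per Ensembl gene. The deposited antibody table holds estimated counts per transcript, which were summed here to genes with GENCODE vM21 (99.1% of transcripts matched, 0.388% of counts left out) and rounded. In the peptide table, 1 column could not be tied to a label and was left out. Groups came from the treatment label, and replicates are mice. The members and lists were chosen with earlier results of these data known. Some genes are not reported here.

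Genes averaging 10 or more counts were tested within each study with edgeR 4.0.16 (TMM, quasi-likelihood, Benjamini-Hochberg over all genes), since the tables were normalised separately. CPM are TMM-scaled, log2 CPM use a prior count of 2, and lengths are count-weighted transcript lengths from the antibody study. Single values were compared by 2-sided exact permutation (scipy), adjusted over 12 tests, and relations over 100000 permutations, adjusted over 18. Named genes were the members, the wider list, and the 3 genes most like each member. Alternatives were DESeq2 1.42.0, limma-voom 3.58.1, other scalings and filters, covariates (sva 3.50.0) and leaving out each heart. The fits were tested on simulated data. Replicate counts differed by more than sampling noise (chi-square per degree of freedom at least 3.48). At 119 to 735 and 178 to 1154 counts per heart, Bdh1 has the least depth of the members.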

Additional observations from a re-analysis of the deposited data

Results flagged for a closer look

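Among the members, their ratios and their tested transcripts, 42 sets of 7 or 8 hearts were searched for a heart far from the rest of its group, and chance alone marks about 1 set in 20. That rate is no guide to the number marked here, since the sets share hearts and counts, and Oxct1-203, at 0 counts in 7 of 8 control hearts, was bound to be marked. All 9 marks fell in the control antibody group. The heart of mouse 22 was low in Bdh1 (25.5 CPM), Acat1 (265 CPM) and Oxct1-201 (315.8 CPM), and in the log2 ratios of Bdh1 to Oxct1 (-3.72) and Bdh1 to Acat1 (-3.37), and high in the noncoding Acat1-203 (8.16 CPM). The heart of mouse 8 was low in the log2 ratio of Acat1 to Oxct1 (-0.87), and high in Oxct1-203 (15.3 CPM) and Oxct1-205 (50.05 CPM). Mouse 22 had the lowest mitochondrial share of its study, 26.0%, the highest summed fibroblast markers, 747.7 CPM where the other 15 hearts ranged from 473.9 to 710.1 CPM, and the highest red blood cell (2702 CPM), endothelial (747.7 CPM) and macrophage (58.3 CPM) sums. Its summed ventricular cardiomyocyte markers were not low, at 56119 CPM, rank 14 of 16 from the lowest, where the other 15 hearts had a median of 51074 CPM. The part of these values in the low RNA levels of the members in mouse 22 was not tested.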

How the results depend on the processing

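Other tools, scalings, filters and covariates were run on the members' fold changes, other scalings and a prior count of 0.5 on the CPM differences, that prior count on the ratios, no filter on the transcripts, and leaving out each heart on all of them. None brought a member's fold change past an adjusted p of 0.05. Of 596 values over all settings, counts of calls and levels per length included, 35 changed sign, 4 exact permutation tests came past an unadjusted p of 0.05 and 3 counts of called genes moved from 0. Scaling to total counts turned Acat1 under Aβ42 to 0.0051 (log2 fold change) and 0.0010 (difference in mean log2 CPM), and moved the median gene by 0.03. The atrial covariate gave 0.15 for Oxct1 and 0.20 for Acat1 under Aβ42, the first surrogate variable 0.079 and 0.13 (0.54 for Bdh1), and the mitochondrial covariate -0.056 for Oxct1 and 0.088 for Acat1 under 3D6. DESeq2 called 12 genes in the peptide study. Leaving out 1 heart each gave 0 to 3 called genes there. It gave ranges of log2 fold change of 0.061 to 0.46 (Bdh1), -0.21 to 0.0083 (Oxct1) and -0.067 to 0.068 (Acat1) under Aβ42, and -0.46 to -0.17 (Bdh1), -0.029 to 0.12 (Oxct1) and 0.098 to 0.21 (Acat1) under 3D6. For the differences in mean log2 CPM the ranges were -0.049 to 0.47 (Bdh1), -0.24 to 0.0093 (Oxct1) and -0.087 to 0.069 (Acat1) under Aβ42, and -0.57 to -0.13 (Bdh1, exact permutation p = 0.0544 without control mouse 22), -0.029 to 0.15 (Oxct1) and 0.093 to 0.22 (Acat1) under 3D6. For the ratios of Bdh1 to Oxct1, Bdh1 to Acat1 and Acat1 to Oxct1 they were 0.16 to 0.46, 0.012 to 0.40 and 0.060 to 0.18 under Aβ42, and -0.54 to -0.24, -0.66 to -0.31 and 0.049 to 0.12 under 3D6. For transcripts they were 0.10 to 0.21 (Acat1-201), -1.04 to 0.24 (Acat1-203), -0.40 to -0.11 (Bdh1-202), -0.51 to -0.21 (Bdh1-203), -0.24 to 0.13 (Bdh1-205), -0.053 to 0.077 (Oxct1-201), -0.026 to 0.35 (Oxct1-202), -0.68 to 7.39 (Oxct1-203) and 0.55 to 2.36 (Oxct1-205). The 7.39 is from leaving out control mouse 8, after which the other 7 control hearts are at 0 counts, so it depends on the prior count and is no measure of size (edgeR unadjusted p = 0.0211, adjusted 0.993). Without both low hearts of the peptide study, chosen after seeing the data, Acat1 was at 0.012, Bdh1 at 0.36 and Oxct1 at -0.051, with 0 genes called. The causes of these shifts were not tested. No paired analysis was possible because the groups share no mouse numbers. The 95% intervals of Bdh1 reach log2 fold changes of 1.04 under Aβ42 and -0.91 under 3D6.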
